A study of Bubalus bubalis with 12 samples.

Results

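In the rumen wall, fermentation acids taken up from the lumen are partly metabolised before they reach the blood. Butyrate is activated to butyryl-CoA, oxidised to acetoacetyl-CoA and acetyl-CoA, and released as the ketone bodies acetoacetate and 3-hydroxybutyrate, for which the rumen epithelium is known. Acetate is either passed on or activated to acetyl-CoA by acetyl-CoA synthetases. The genes described here are ACAT1, BDH1, BDH2, OXCT1, ACSS1 and ACSS2. They were chosen by symbol for their place in these steps, with earlier results of these data known. All 6 symbols were found, each in 1 row, among the 34037 genes of the deposited table, and all 6 were matched by gene ID to the RefSeq gene table.

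Ruminal wall came from 12 adult Italian Mediterranean dairy buffaloes that were due for slaughter. The control group (n = 6) was fed a total mixed ration (TMR), and the treated group (n = 6) a TMR with 30% green feed, which was fresh ryegrass. Both groups received TMR, the forage to concentrate ratio differed between the diets, and each animal gave 1 stranded total RNA library of the biopsy. Values are FPKM, fragment counts scaled to gene length and to the total counted in the library, so that levels of different genes can be compared per length.

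The libraries held from 10531468 to 12948299 counted fragments. In 66 pairwise comparisons of the libraries the reads never matched within counting error, so no library was a repeat of another. The summed FPKM of 11 epithelial markers, each above 3 reads in some animal, ranged from 2816 to 4595 in controls and between 2677 and 5376 in treated animals. KRT14 is not listed under that symbol. The 8 smooth muscle markers summed to between 28.3 and 49.1 FPKM in controls and between 15.3 and 39.3 FPKM in treated animals, and the 7 fibroblast markers to between 42.9 and 271 and between 18.4 and 169 FPKM. These stromal markers, too, were above 3 reads in some animal. The 4 endothelial markers summed to between 5.42 and 28.4 FPKM and the 6 immune markers to between 37.0 and 74.7 FPKM over both groups. Of the glial and neuronal markers, SOX10 was at 3 reads or fewer in every animal, as were the adipocyte markers ADIPOQ and PLIN1 and the hepatocyte marker ALB. The 3 hepatocyte markers summed to at most 1.82 FPKM in any animal.

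The mitochondrial enzymes of ketone body release were among the most abundant transcripts of the tissue. ACAT1 (gene 102398030), which encodes the mitochondrial thiolase that interconverts acetyl-CoA and acetoacetyl-CoA, ranked 141 of 34037 genes by mean FPKM. Control animals had between 455.8 and 710.7 FPKM (median 575), and treated animals between 359.2 and 669.9 FPKM (median 599). The lowest value was that of treated replicate 1, and the other 5 treated animals lay within the control range. BDH1 (gene 102411983), the mitochondrial dehydrogenase that reduces acetoacetate to 3-hydroxybutyrate, ranked 198. Levels lay between 289.8 and 433.8 FPKM in controls (median 361), and between 296.9 and 463.4 FPKM in treated animals (median 380). Here only treated replicate 5 lay outside the control range, above it.

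BDH2 (gene 102397581) encodes a cytosolic dehydrogenase related to BDH1 that has also been linked to the synthesis of an iron-binding siderophore. Controls spanned 25.9 to 33.3 FPKM (median 30.0), whereas treated animals spanned 21.4 to 41.7 FPKM (median 28.9). Treated replicates 1 and 2 were below every control, and treated replicate 6 was above every control. The group means were nearly the same, 29.5 ± 2.91 FPKM without and 29.5 ± 7.16 FPKM with green feed (SD, n = 6 per group).

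OXCT1 (gene 102410048) encodes a CoA transferase for the use of ketone bodies as fuel outside the liver. Controls spanned 3.50 to 5.78 FPKM (median 4.47), whereas treated animals spanned 1.76 to 5.91 FPKM (median 3.19). Treated replicates 2, 3, 4 and 5 were below every control, treated replicate 1 was within the control range and treated replicate 6 was above every control. OXCT1 thus had the widest range of the 6 genes, 3.36-fold between the highest and the lowest animal, with 74 to 263 reads behind each value.

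The enzymes that activate acetate differed from each other in level. ACSS2 (gene 102395152), the cytosolic and nuclear acetyl-CoA synthetase, had 14.5 to 21.9 FPKM in controls (median 16.04), against 14.7 to 22.8 FPKM in treated animals (median 18.6). The mitochondrial acetyl-CoA synthetase ACSS1 (gene 102410513) had 0.339 to 0.902 FPKM in controls (median 0.602), against 0.320 to 0.715 FPKM in treated animals (median 0.526). For both genes the groups overlapped widely, and treated replicates 1 and 3 were above every control in ACSS2. Each ACSS1 value rests on 13 to 34 reads only, so that the counting error alone gives a standard deviation of 0.32 on the log2 scale, against 0.49 between animals of a group.

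**Figure D1:**
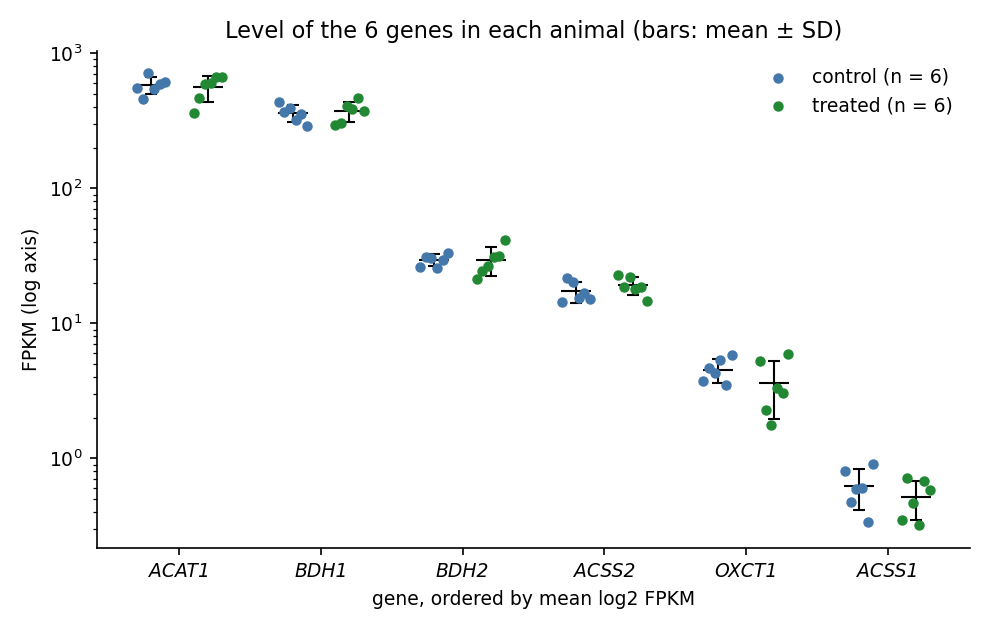
FPKM of the 6 genes in each of the 12 animals on a log axis, 1 point per animal, with bars for the group mean ± SD (n = 6 each) and genes ordered by mean log2 FPKM. The genes span about 3 powers of 10, from ACAT1 at 570 FPKM to ACSS1 at 0.569 FPKM over all animals, and in every gene the points of both groups overlap.

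The order ACAT1, BDH1, BDH2, ACSS2, OXCT1 and ACSS1 was the same in 11 of the 12 animals. ACAT1 was above BDH1 by 1.55-fold on average (1.21 to 2.12-fold, 12 of 12 animals), and BDH1 was above BDH2 by 12.5-fold (8.70 to 16.5-fold, 12 of 12 animals). BDH2 exceeded ACSS2 in 11 of 12 animals, by 1.62-fold on average. ACSS2 was above OXCT1 by 4.67-fold and OXCT1 above ACSS1 by 6.99-fold, in 12 of 12 animals each. By an exact sign-flip permutation test of the log2 difference within an animal (two-sided, n = 12), all 5 neighbours in this order differed, with Benjamini-Hochberg adjusted p-values of 0.000977 for BDH2 and ACSS2 and of 0.00061 for the others. The smallest unadjusted p-value this test allows is 0.000488. The exception to the order was treated replicate 1, with 21.4 FPKM of BDH2 and 22.8 FPKM of ACSS2.

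ACAT1 and BDH1 together made up between 92.9% and 95.6% of the summed FPKM of the 6 genes. All 6 genes took between 0.152% and 0.254% of the counted fragments of an animal, with group medians of 0.21% (control) and 0.225% (treated).

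The question of the study's comparison was whether green feed changes gene expression in the ruminal wall. For this, limma was applied to log2(FPKM + 0.01) of the 12742 genes with at least 40 scaled reads in at least 1 animal, and 5 of the 6 genes were among them. ACSS1 was below this minimum in every animal. A nominal (unadjusted) p-value below 0.05 was taken as the call. It was reached by 162 of the genes tested, 1.27% (0.801% higher and 0.471% lower in treated animals), and by 0 of the 5 genes described here. No gene of the 12742 had an adjusted p-value below 0.05 in limma, and voom on the reads called 145 genes at the same nominal threshold, again with 0 of these 5. In 0 of the 6 genes did every treated animal lie on one side of every control animal, which was the case for 0.0549% of the genes tested.

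The largest difference was that of OXCT1, which averaged 4.55 ± 0.903 FPKM without and 3.60 ± 1.65 FPKM with green feed (SD, n = 6 per group). Its log2 fold change was -0.44 with a 95% interval from -1.04 to 0.15, and the two-sided exact permutation p-value over all assignments of the animals to groups was 0.173. Without treated replicate 6 the log2 fold change was -0.61 and the p-values were 0.0311 in limma and 0.0498 in the exact permutation test (n = 6 and 5). In that limma fit the adjusted p-value of OXCT1 was 0.969, and 331 of the 12742 genes had a nominal p-value below 0.05. Leaving out any other animal gave no call of OXCT1, with limma p-values of up to 0.314. The variance of log2 FPKM was 5.52 times as large in treated as in control animals, a description that was not tested.

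ACSS2 averaged 17.3 ± 3.01 FPKM without and 19.1 ± 2.98 FPKM with green feed (SD, n = 6 per group), which gave a log2 fold change of 0.15 (95% interval from -0.15 to 0.45; exact permutation p = 0.299). Of the treated animals, 5 of 6 were above the control median. For ACSS1, the log2 difference of the group means was -0.25 (exact permutation p = 0.394). When all genes above 0 were put into the limma fit, the 95% interval of ACSS1 was from -1.02 to 0.52. Without 1 animal the log2 difference of ACSS1 lay between -0.41 (without control replicate 5) and -0.13 (without treated replicate 4), and with a pseudocount of 1 it was -0.09, none of them passing the exact permutation test.

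The ketone body dehydrogenases and the thiolase had log2 fold changes close to 0. BDH1 averaged 361 ± 51.5 FPKM without and 372 ± 63.9 FPKM with green feed (SD, n = 6 per group), which gave a log2 fold change of 0.04 (95% interval from -0.26 to 0.34; exact permutation p = 0.775). For ACAT1 the means were 580 ± 84.3 FPKM in controls against 560 ± 123 FPKM in treated animals, with a log2 fold change of -0.07 (95% interval from -0.43 to 0.29; exact permutation p = 0.710 with n = 6 each). BDH2 had a log2 fold change of -0.03 (95% interval from -0.34 to 0.29; exact permutation p = 0.879). These intervals leave room for falls to 0.743-fold and rises to 1.26-fold at most in the mean level of these genes, and p-values of this size do not show that the diets act alike.

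Because the values of 1 animal share the same scaling, ratios of a pair of genes within an animal were also compared. The ratio of BDH1 to OXCT1 in FPKM lay between 50.1 and 117 in controls (median 86.0), and between 56.5 and 232 in treated animals (median 124). Treated replicates 2, 3 and 5 were above every control, while treated replicates 1, 4 and 6 were within the control range. The log2 difference was 0.48 (standard error 0.37; exact permutation p = 0.216, 0.450 when adjusted over 4 ratios). The ratio of ACAT1 to OXCT1 had a control median of 128 and a treated median of 192 (exact permutation p = 0.338), with treated replicates 2, 3, 4 and 5 above every control and treated replicate 1 below every control. ACSS1 was at 0.0203 to 0.0598 of the level of ACSS2 in controls, against 0.0152 to 0.0398 in treated animals (exact permutation p = 0.296). BDH1 exceeded BDH2 by a median of 12.3-fold in controls and 13.1-fold in treated animals (exact permutation p = 0.690). None of the 4 ratios passed the test.

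**Figure D2:**
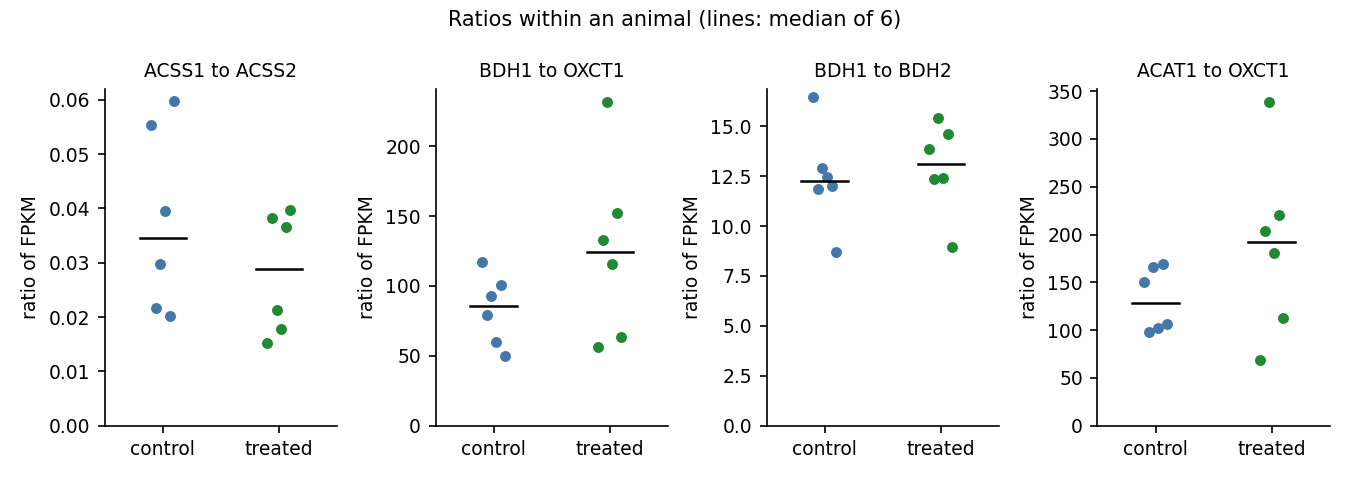
Ratios of FPKM between a pair of genes within each animal, on axes that start at 0, for the control and the treated group (n = 6 each), with a line at the median. In all 4 panels the groups overlap, and the ratios to OXCT1 spread more widely in the treated group, up to 232 for BDH1 and up to 339 for ACAT1.

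The 6 genes differed in how much they varied among animals. On the log2 scale, the standard deviation within groups was 0.23 for BDH1, 0.24 for ACSS2, 0.26 for BDH2 and 0.29 for ACAT1, below the median of 0.36 over the genes tested. OXCT1, with 0.52, and ACSS1, with 0.49, were above it. In BDH2, whose group means were nearly the same, the variance was 5.50 times as large in the treated as in the control group. The same ratio was 2.77 for ACAT1 and 1.46 for BDH1, and it was below 1 for ACSS2 (0.911) and ACSS1 (0.909). These ratios were not tested and were not set beside those of all genes tested.

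Partner genes of the same pathways were taken from a list of 38 symbols, of which 34 are in the table and 26 were tested. With limma, 0 of the 26 had a nominal p-value below 0.05 (1.27% of all genes tested did), and with voom 0 did. The median log2 fold change was -0.03 over the 26 genes and 0.01 over all genes tested, with 10 values above and 16 below 0.

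Among the ketone body partners, HMGCS1, the cytosolic synthase of the cholesterol pathway, had the lowest log2 fold change of these partners, -0.26 (exact permutation p = 0.301). ACAT2, the cytosolic thiolase, and AACS, the cytosolic acetoacetyl-CoA synthetase, had log2 fold changes of -0.17 and -0.14. The CoA transferase OXCT2 had 0 reads in all animals.

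Of the acyl-CoA synthetases, ACSF2 was the most abundant, averaging 515.5 ± 107.5 FPKM without and 507 ± 115.8 FPKM with green feed (SD, n = 6 per group). ACSS3, the family member with a preference for propionate, had 0.484 to 4.79 FPKM in controls, against 0.153 to 2.43 FPKM in treated animals. Treated replicates 1, 2 and 3 were below every control, while treated replicates 5 and 6 were within the control range and above its median. Its log2 fold change was -1.41 (95% interval from -2.92 to 0.09; exact permutation p = 0.104). Leaving out control replicate 6, treated replicate 5 or treated replicate 6 gave nominal limma p-values of 0.0284, 0.0289 and 0.0151. The adjusted p-values of ACSS3 in these limma fits were 0.9999, 0.9998 and 0.9687. In the same fits 202, 196 and 331 of the 12742 genes had a nominal p-value below 0.05. Leaving out any other animal gave no call of ACSS3. With a pseudocount of 1 the log2 fold change of ACSS3 was -0.58, and with the smooth muscle and fibroblast score as a covariate it was -1.02, neither of them called. The paper, which used NOISeq beside edgeR, lists ACSS3 among the strongest decreases with green feed by NOISeq. It proposes that its edgeR results are the more reliable. NOISeq was not run here. ACSM1 and ACSM3, medium-chain synthetases that also act on butyrate, had at most 4 and 1 reads in any animal. ACSM2A, ACSM2B, ACSM4 and ACSM5 are not listed under these symbols.

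The list for butyrate oxidation held 9 enzymes and subunits of mitochondrial fatty acid oxidation, among them HADHA and HADHB, which act on long chains, and ACAA2, a thiolase of medium chains. They had means of between 139 FPKM (HADHB) and 1155 FPKM (ACAA2) over all animals. ACADS, the short-chain acyl-CoA dehydrogenase, averaged 190 ± 48.9 FPKM without and 194 ± 57.4 FPKM with green feed (SD, n = 6 per group). Log2 fold changes in this group of 9 genes were between -0.17 for ECHS1, the enoyl-CoA hydratase, and 0.11 for ETFB, a subunit of the electron transfer flavoprotein. Among the genes of acetyl-CoA use and release, the 5 tested ranged from -0.08 for ACLY, the citrate lyase, to 0.04 for ACOT8, a peroxisomal thioesterase. Of the regulators, SIRT3, the mitochondrial deacetylase, had a log2 fold change of 0.19 and SIRT1 one of -0.14. ACOT12 and FGF21 had 0 reads in all animals, and PPARGC1A and ACACB had at most 5 and 11 reads.

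**Figure D3:**
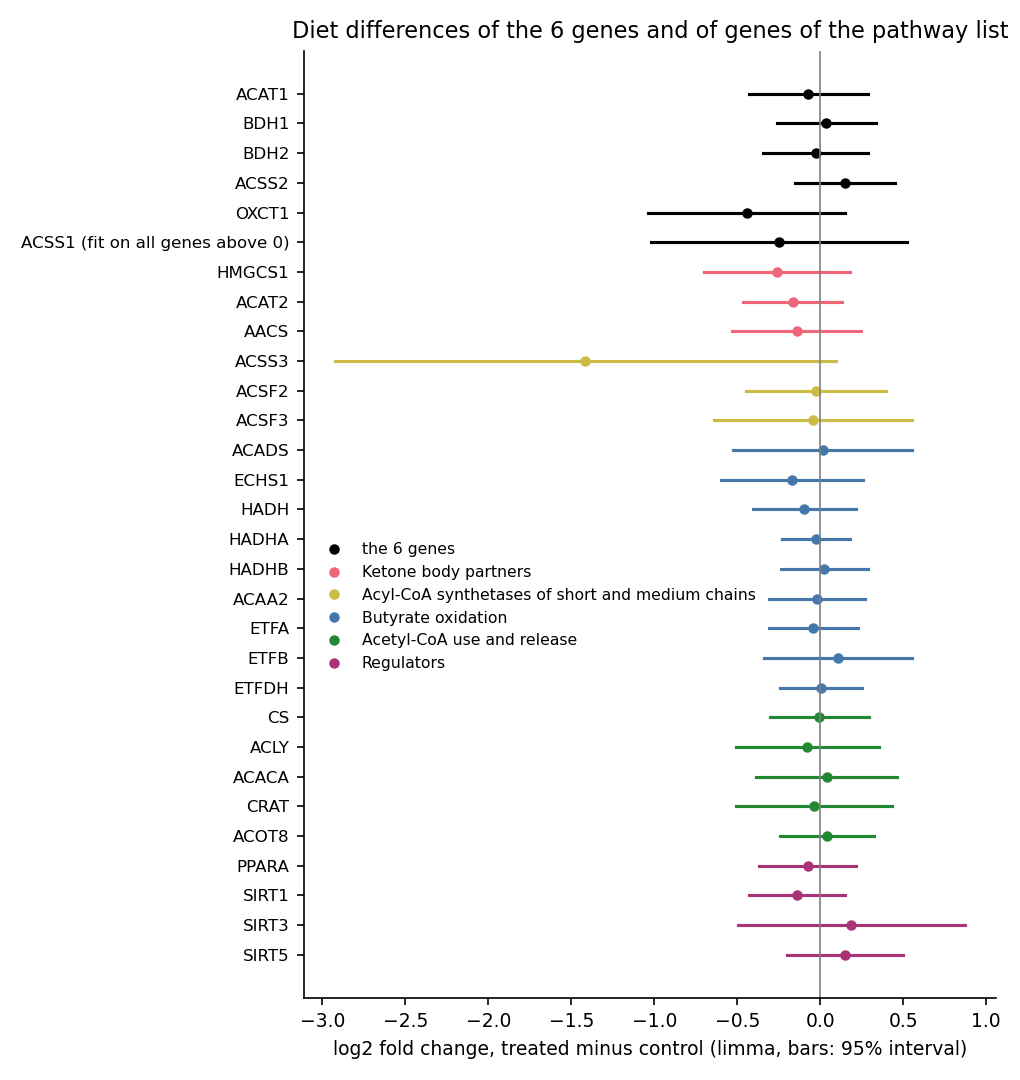
Log2 fold changes from limma, treated minus control, of the 6 genes and of tested genes of the pathway list, with bars for the 95% interval. Every interval shown includes 0, and the widest is that of ACSS3, from -2.92 to 0.09. ACSS1 is shown from the fit on all genes above 0.

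Levels of the 6 genes were also compared with each other across the 12 animals. Of 15 pairs, the closest relation was that of ACAT1 and BDH2, with a Pearson r of 0.706 (permutation p = 0.0106, adjusted p = 0.159 over 15 pairs) and a Spearman rho of 0.685 (permutation p = 0.0176, adjusted p = 0.264). Without the animals farthest from the median of BDH2, treated replicates 1 and 6, r was 0.470. The values were 0.183 among controls and 0.849 among treated animals. For BDH1 and ACAT1, r was 0.551 (permutation p = 0.0605, adjusted p = 0.454; Spearman rho 0.490, permutation p = 0.109, adjusted p = 0.548), and 0.567 without control replicate 6 and treated replicate 1. No pair passed the test after adjustment, and 1 pair had an unadjusted p-value below 0.05. The genes of acetate activation had an r of -0.490 (permutation p = 0.106, adjusted p = 0.482; Spearman rho -0.448, permutation p = 0.146, adjusted p = 0.548), and -0.759 without control replicate 5 and treated replicate 4.

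Each biopsy can hold epithelium and underlying stroma in its own proportion, so the 6 genes were set beside the mean log2 level of epithelial markers, of smooth muscle and fibroblast markers, and of immune markers, 18 relations in all. In bulk tissue, fewer cells of a type and less RNA per cell cannot be told apart. ACAT1 was lower in animals with a higher epithelial score, with a Pearson r of -0.836 (permutation p = 0.00063, adjusted p = 0.0113) and a Spearman rho of -0.846 (permutation p = 0.00096, adjusted p = 0.0173). Without control replicate 6 and treated replicate 1, the animals farthest from the median score, r was -0.772 and no longer passed the test (adjusted permutation p = 0.138). The r of ACAT1 was -0.625 among controls and -0.931 among treated animals. Without treated replicate 1 alone, r was -0.682 and its adjusted p-value was 0.192 by permutation. BDH2 behaved likewise, with r = -0.795 (permutation p = 0.00329, adjusted p = 0.0238) and a Spearman rho of -0.664 (permutation p = 0.0222, adjusted p = 0.177). Without control replicate 6 and treated replicate 1, r of BDH2 was -0.698 and did not pass the test either (adjusted permutation p = 0.234). Within the groups, r of BDH2 was -0.473 in controls and -0.929 in treated animals. Leaving out treated replicate 1 or treated replicate 2 gave adjusted p-values of 0.192 and 0.0634 for BDH2, by permutation. With median ratio scaling r of BDH2 was -0.688 and its adjusted permutation p-value was 0.0965.

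With the smooth muscle and fibroblast score, ACAT1 had r = 0.770 (permutation p = 0.00397, adjusted p = 0.0238; Spearman rho 0.636, permutation p = 0.0295, adjusted p = 0.177). Within the control and the treated group r was 0.835 and 0.833. Without treated replicates 1 and 2, which had the lowest stromal scores, r over the remaining animals was 0.411 and the relation no longer passed the test, while the r of 0.835 is that of the 6 controls, which include neither animal. Leaving out control replicate 3, treated replicate 1 or treated replicate 2 alone also raised its adjusted p-value above 0.05, to 0.068, 0.234 and 0.0634 by permutation. ACSS2 had the opposite sign, with r = 0.648 to the epithelial score (permutation p = 0.0194, adjusted p = 0.0871; Spearman rho 0.594, permutation p = 0.0449, adjusted p = 0.202), and r = 0.423 without control replicate 6 and treated replicate 1. None of the 6 relations to the immune score passed the test, nor did any of BDH1, OXCT1 and ACSS1.

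Single markers showed the same signs in most but not all cases. Of the 11 epithelial markers, 10 had an r below 0 with ACAT1, from -0.799 for GRHL3, and EPCAM had an r of 0.300. All 7 fibroblast markers had an r above 0 with ACAT1, between 0.781 for POSTN and 0.881 for COL1A2. Of the 8 smooth muscle markers, 7 had an r above 0 with ACAT1, and SMTN had -0.495. With ACSS2, all 7 fibroblast markers had an r below 0, between -0.620 for DCN and -0.495 for LUM. Of the epithelial markers, 8 were above 0 with ACSS2 and 3 below, down to -0.339 for DSG3. Of the smooth muscle markers, 6 were below 0 with ACSS2 and 2 above, up to 0.507 for SMTN. With BDH2, 9 epithelial markers were below 0 and 2 above, up to 0.452 for EPCAM. All 7 fibroblast markers and 6 of the 8 smooth muscle markers were above 0 with BDH2, and SMTN had -0.705. These correlations over 12 animals share the libraries and their scaling and are given as a description.

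The smooth muscle and fibroblast score itself averaged 2.38 ± 0.578 without and 1.46 ± 0.975 with green feed (mean log2, SD, n = 6 per group; exact permutation p = 0.0801). The epithelial score was 6.19 ± 0.280 and 6.28 ± 0.376 (exact permutation p = 0.675). With the former score as a covariate in limma, the log2 fold change of ACAT1 was 0.21 and that of BDH2 was 0.14, both opposite in sign to those without it. With the same covariate, BDH1 went from 0.04 to 0.20, ACSS2 from 0.15 to 0.05 and OXCT1 from -0.44 to -0.47. None of the 5 was called. The part of the tissue composition in the differences between the diets was not tested beyond these fits.

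**Figure D4:**
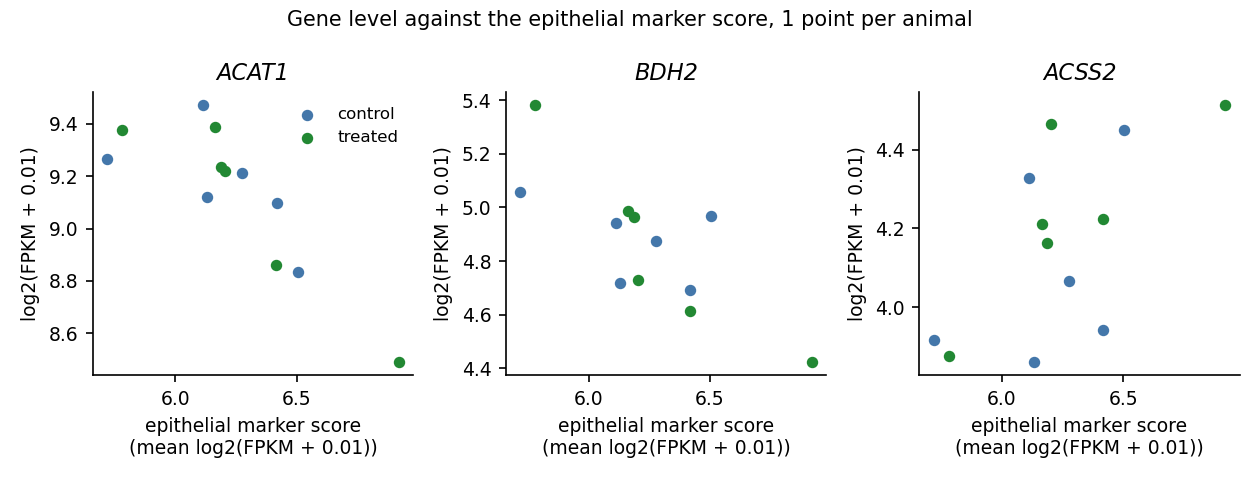
Level of ACAT1, BDH2 and ACSS2, as log2(FPKM + 0.01), against the epithelial marker score of the same animal, the mean log2(FPKM + 0.01) of 11 markers, with 1 point for each of 6 control and 6 treated animals. ACAT1 and BDH2 fall as the score rises (r = -0.836 and -0.795), ACSS2 rises (r = 0.648), and treated replicate 1 is the point farthest to the right.

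The genes most alike each of the 6 were found from the Pearson r of log2 deviations from the group means over the 12 animals, among the genes tested. For BDH1 they were EBPL (r = 0.940), CCS, the copper chaperone of superoxide dismutase (r = 0.937), and the cell cycle inhibitor CDKN2B (r = 0.910). For BDH2 they were LIAS, the lipoic acid synthase (r = 0.978), YIPF5 (r = 0.967) and LOC102389800 (r = 0.942). For ACAT1 the closest were the basement membrane gene NID2 (r = 0.950), the collagen gene COL6A1 (r = 0.948) and the matrix gene TNC (r = 0.937), all at far lower levels, with means of 0.590, 5.11 and 2.09 FPKM. OXCT1 was most alike SH3GLB1 (r = 0.923), ILF2 (r = 0.895) and B3GALNT1 (r = 0.892). ACSS1 was most alike RHOBTB3 (r = 0.866), GIN1 (r = 0.856) and PARD6G (r = 0.849), and ACSS2 was most alike INPP5K (r = 0.918), the amino acid transporter gene SLC43A2 (r = 0.895) and TAX1BP1 (r = 0.870). None of the 6 genes was among the 3 closest of another, and the best rank was that of BDH2 in the list of ACAT1, 499. These are the highest of 12742 values each and are not tests.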

How the data were processed

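Ruminal wall RNA of 12 buffaloes (6 control, 6 treated; group and replicate numbers from the sample labels) was sequenced as stranded total RNA libraries. The submitters' processing notes name FastQC 0.11.5, Trimmomatic 0.39, STAR 2.5.2b, featureCounts 2.0.0 and edgeR; the genome was UOA_WB_1. The authors deposited FPKM per gene, each animal in its own column; the tool and gene lengths behind the FPKM are not given in the sources used here. Of 16 value columns, 12 matched a sample title, and 4 were not used. No sequences of the genes are shown.

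Low FPKM of a gene rise in even steps of 1 read. Read numbers were derived from these steps for all 22972 genes above 0, which gave whole gene lengths (within 0.01 bases) for 100% of them. Plain totals of counted fragments, not TMM, underlie the scaling. These reads served for the minimum of 40 reads (scaled to the median total, in at least 1 animal), for voom and for counting errors.

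Tests used limma 3.58.1 in R 4.3.3 (eBayes with trend, Benjamini-Hochberg adjustment over the genes tested) on log2(FPKM + 0.01), which understates changes of low genes, in place of the authors' edgeR test on counts, since the deposited unit is FPKM. Single values were tested by two-sided exact permutation (smallest p = 0.00216 between groups and 0.000488 within animals), correlations by 100000 permutations (Python 3.11.15, numpy 2.4.6). The main limma fit was checked on simulated data, and the exact permutation and sign-flip tests on constructed values with a known p-value. Named were the 6 genes, list genes with a nominal p-value below 0.05 or the highest or lowest log2 fold change of their list, and the 3 genes most alike each of the 6. Some items that this rule names are not reported here. Others, such as ACSF2, ACADS, ACAT2, AACS and genes with few reads, were named after their values were seen. Genes and lists were chosen with earlier results of these data known. Alternatives, given at the end, were other pseudocounts, gene filters, scalings, variance models, covariates, the replicate number as a block, voom, rank-sum tests and each animal left out in turn. Added after seeing the data were Spearman rho, median ratio scaling and each animal left out for the correlations.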

Additional observations from a re-analysis of the deposited data

How the results depend on the processing

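The fold changes of the 5 genes in limma passed no threshold in any alternative except for OXCT1 without treated replicate 6. The count of genes with a nominal p-value below 0.05 was 162 of 12742 in the main fit. It was 562 of 22972 with all genes above 0 and 301 with at least 0.1 FPKM in 6 animals. These filters changed the number of genes tested, so their counts are not shares of the same total. Over the same 12742 genes, the count was 325 with a block for the replicate number. With the smooth muscle and fibroblast score as a covariate it was 335. When 1 animal was left out, the count ranged from 145 to 331, the latter without treated replicate 6. Of the 5 genes, 0 to 1 were called when 1 animal was left out. Of the pathway list, 1 gene was called with all genes above 0 (PPARGC1A), 1 with the smooth muscle and fibroblast score, and 0 to 1 (ACSS3) when 1 animal was left out.

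Log2 fold changes near 0 changed sign. BDH2 was at 0.14 with the stromal score and at 0.0268 with the epithelial score, ACAT1 at 0.21 with the stromal score, and the difference of the medians of ACAT1 in the rank-sum test was 0.0608. With 1 animal left out, BDH1 ranged from -0.0295 to 0.0989, BDH2 from -0.133 to 0.0593, ACAT1 from -0.139 to 0.0496, OXCT1 from -0.61 to -0.26 and ACSS2 from 0.094 to 0.222, in limma and in the exact test alike. In the exact test, ACSS1 ranged from -0.405 to -0.126, the BDH1 to BDH2 log2 ratio from -0.0338 to 0.166, BDH1 to OXCT1 from 0.27 to 0.677, ACAT1 to OXCT1 from 0.166 to 0.627 and ACSS1 to ACSS2 from -0.548 to -0.241. The order by level passed its test in all 65 alternatives. Of the 18 relations to marker scores, 3 passed the test, but 0 without the animals farthest on the score, 1 with Spearman rho, 2 with median ratio scaling, which ended the call of BDH2, and 0 to 4 when 1 animal was left out. The cause of these changes was not tested.

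The replicate numbers of the labels stand for different animals in the groups. Same-numbered animals had correlations of their deviations between -0.0116 and 0.412 over 6 pairs, of which 4 were above 0.1, and 8 of 12 animals correlated best with their own number. With the replicate number as a block, OXCT1 had a limma p-value of 0.0902, and no call of the 6 genes or 4 ratios changed. Among the 6 genes ACSS1 had the fewest reads, 13 to 34 per animal, and its counting standard deviation of 0.32 was below that within groups, 0.49. Counting errors cover the sampling of reads only.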
